A study of Homo sapiens with 7 samples.

Results

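Regulators of G protein signalling (RGS) and the subunits of heterotrimeric G proteins were followed in RNA sequencing of NGP, a human neuroblastoma cell line, and of lines made from it that carry ARID1A mutations. The genes were taken by symbol alone: RGS followed by a number, GNA followed by a number, GNB1 to GNB5, GNG followed by a number, and the alpha subunits GNAI1, GNAI2, GNAI3, GNAO1, GNAQ, GNAS, GNAL and GNAZ. This gave 49 of the 28517 named entries in the deposited tables, made up of 21 RGS genes and 13 alpha, 5 beta and 10 gamma subunit genes. The 7 libraries were 2 of ARID1A-/- line 1, 2 of ARID1A-/- line 2, 1 of an ARID1A+/- line and 2 of control NGP cells, and every culture was kept in RPMI medium with serum and 0.5 ug/ml puromycin. Each of the 3 groups with a pair of libraries had 1 made with the SMARTer kit and 1 made with the KAPA kit, and the ARID1A+/- library was a KAPA library. Pairs of values below are given with the SMARTer library first. ARID1A, which encodes a DNA-binding subunit of the BAF chromatin remodelling complex, was itself at 16.7 and 17.2 RPKM in line 1, 14.2 and 13.8 in line 2, 19.9 in the ARID1A+/- line and 22.3 and 22.0 in the control. RPKM is the count scaled to the length of the gene and to the total of the library. The labels give neither the position of the mutations nor whether a line is 1 clone, and with 1 control line the genotype cannot be told apart from other differences between lines. Whether the pair of libraries of a line stems from separate cultures is not stated, and p-values then reflect only the spread among these libraries, which may be technical.

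A heterotrimeric G protein couples a receptor of the cell surface to enzymes and ion channels inside the cell. An activated receptor makes the alpha subunit exchange GDP for GTP, after which alpha and the beta-gamma pair each act on their own effectors until alpha hydrolyses the GTP. RGS proteins speed up that hydrolysis on alpha subunits of the i/o and q families and so shorten the signal. Sympathetic neurons, the lineage from which neuroblastoma arises, use the i/o family for the brake that noradrenaline and neuropeptides place on calcium channels and transmitter release.

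The total count per library lay between 24445301 and 43644361. Of 10 genes that mark sympathetic neuroblastoma cells, 7 stood above 10 RPKM in each of the 7 libraries, the lowest value being 19.5 RPKM. The other 3, TH and DBH of noradrenaline synthesis among them, were under 0.5 RPKM in at least 1 library. Markers of Schwann cells (4 genes) summed to at most 1.18 RPKM in any library and those of endothelial cells (3) to at most 0.137, with PECAM1 of endothelial cells and CD3E of T cells at 0 throughout.

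The 4 classes were carried by few genes. GNB1 held between 78.7% and 84.4% of the beta subunit RPKM in the 7 libraries and GNAS, the alpha subunit that stimulates adenylyl cyclase, between 38.2% and 54.7% of the alpha RPKM. GNG5 held between 40.1% and 50.2% of the gamma RPKM. Among RGS genes the R4 family, small proteins made of little more than the RGS domain, held between 68.6% and 95.5% of the class. The RGS class summed to 411 and 394 RPKM in line 1, 141 and 135 in line 2, 132 in the ARID1A+/- line and 223 and 143 in the control. Alpha subunits summed to 245 and 229 RPKM in line 1, 222 and 247 in line 2, 191 in the ARID1A+/- line and 206 and 223 in the control. The log2 ratio of summed RPKM to the control of the same kit was therefore 1.17 ± 0.41 (SD, n = 2 kits) for RGS in line 1 and -0.37 ± 0.41 in line 2, against 0.14 ± 0.15 and 0.13 ± 0.03 for alpha subunits.

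For the tests, edgeR's quasi-likelihood model was fitted to the counts of all 14711 entries with a mean of at least 0.5 RPKM over the 6 ARID1A-/- and control libraries, with terms for group and kit, and a gene is called here at a Benjamini-Hochberg adjusted p under 0.05. Of the 49 genes 35 were tested (11 RGS, 11 alpha, 5 beta, 8 gamma) and 14 lay below the filter. The mean of both ARID1A-/- lines against control called 11 of the 35 (31.4%), 2 higher and 9 lower, where 14.2% of all genes tested were called, 4.64% higher and 9.57% lower. Line 1 against control called 5 higher and 5 lower (28.6%, against 13% of all genes, 4.75% higher and 8.27% lower). Line 2 against control called 1 higher and 8 lower (25.7%, against 14% of all genes, 5.47% higher and 8.52% lower). The direct test of line 1 against line 2 called 9 higher and 1 lower (28.6%, against 12.8% of all genes, 5.71% higher and 7.1% lower). The median log2 fold change of the 35 genes was -0.02 over both lines, 0.16 in line 1 and -0.08 in line 2, where the median of all genes was 0.02, 0.01 and 0.02. The RGS genes accounted for much of this: 8 of 11 were called over both lines (1 higher, 7 lower, median -0.78), against 2 of 11 alpha, 0 of 5 beta and 1 of 8 gamma genes. Of those 8, only RGS7 and RGS20 were called lower in each line. RGS5 was called higher in line 1 and lower in line 2. Against control, RGS3 and RGS16 were called in line 2 alone, and RGS2, RGS10 and RGS12 in line 1 alone. For the RGS genes over both lines DESeq2 called 2 higher and 7 lower, and limma 0 higher and 3 lower. For the beta genes edgeR gave 0 higher and 1 lower at an unadjusted p under 0.05, and DESeq2 and limma called 0. Both lines were set against the same control libraries, so the values of a gene in line 1 and line 2 are given side by side. The filter is a mean over libraries, so a gene low in 1 group could pass through another: RGS20 passed through its control libraries alone.

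**Figure D1:**
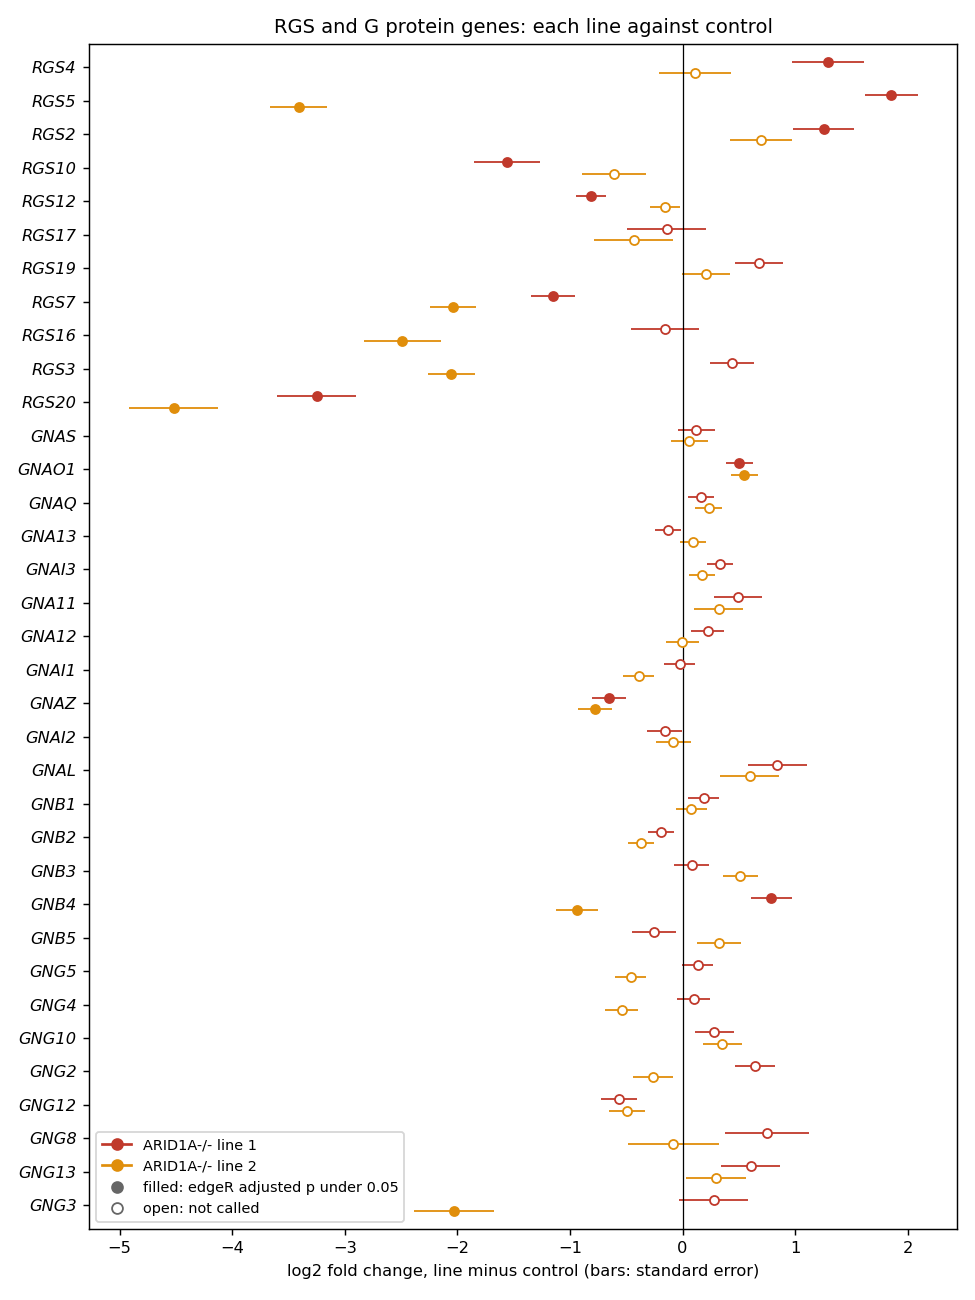
Log2 fold change of each of the 35 tested genes in ARID1A-/- line 1 (red) and line 2 (orange) against control, with the standard error of the edgeR fit as the bar; filled points are called at an adjusted p under 0.05. RGS5 lies at 1.85 in line 1 and -3.41 in line 2, RGS20 lies far left in both, and the alpha subunits stay within 1 log2 unit of 0.

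The R4 family held the widest difference between the lines among the 35 genes, that of RGS5. RGS5, a GTPase activator of the i/o and q alpha subunits best known from pericytes and vascular smooth muscle, stood at 187 and 158 RPKM in line 1, 4.51 and 4.61 in line 2, 17.5 in the ARID1A+/- line and 64.6 and 34.0 in the control. Line 1 lay above and line 2 below both control libraries. RGS5 rose by 1.85 ± 0.24 on the log2 scale in line 1 (SE, edgeR adjusted p = 0.00507), a 3.62-fold difference, and fell by 3.41 ± 0.25 in line 2 (edgeR adjusted p = 0.000742), a 10.6-fold difference. Line 1 exceeded line 2 by 5.26 ± 0.28 (edgeR adjusted p = 0.000335), or 38.4-fold. Those calls held without any single library. The mean of both lines, -0.78 ± 0.20 (edgeR adjusted p = 0.0446), averages opposite moves and was no longer called without the SMARTer control library (-0.37) or the SMARTer library of line 2 (-0.60).

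RGS4, the next gene on chromosome 1 in RefSeq order and a neuronal regulator of the same alpha families, was not called in line 2. It stood at 167 and 162 RPKM in line 1, 63.7 and 83.3 in line 2, 48.1 in the ARID1A+/- line and 92.8 and 45.2 in the control. RGS4 rose by 1.29 ± 0.32 in line 1 (edgeR adjusted p = 0.0456), and the call was lost without the KAPA control library (0.74). Line 2 was at 0.11 ± 0.32 (edgeR adjusted p = 0.849), its libraries lying between those of the control, and line 1 minus line 2 at 1.18 ± 0.32 (edgeR adjusted p = 0.0576). That mean of line 2 averages opposite moves, as line 2 lay below the control of the SMARTer kit and above that of the KAPA kit. The ratio of RGS5 to RGS4 RPKM was 1.12 and 0.976 in line 1, 0.0708 and 0.0553 in line 2, 0.363 in the ARID1A+/- line and 0.696 and 0.753 in the control. Together the 2 genes made up 86.1% and 81.1% of RGS RPKM in line 1, 48.5% and 64.9% in line 2, 49.9% in the ARID1A+/- line and 70.5% and 55.3% in the control. The remaining 19 RGS genes summed to between 47.6 and 74.4 RPKM in the 7 libraries. The rise of the class total in line 1 thus lay mostly in RGS5 and RGS4, as did the fall in the SMARTer library of line 2. In the KAPA library of line 2 these 2 genes summed to 87.9 RPKM, against 79.2 in the KAPA control. The other 19 summed to 47.6 RPKM there, against 64.2, and the class total was lower.

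**Figure D2:**
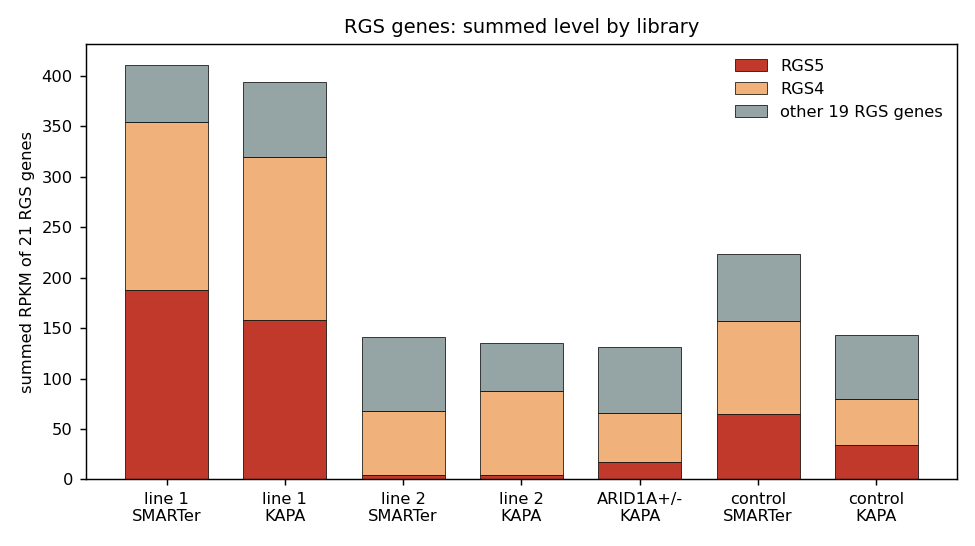
Summed RPKM of the 21 RGS genes in each library, stacked as RGS5, RGS4 and the other 19 genes. The line 1 bars reach 411 and 394 RPKM, against 141 and 135 in line 2, 132 in the ARID1A+/- line and 223 and 143 in the control, and RGS5 is a thin layer in line 2.

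Because RGS5 also marks other cell types, the markers of those cells were read beside it. MYH11, CSPG4 and NOTCH3 of smooth muscle and pericytes reached at most 0.537 RPKM in any library and ACTA2 at most 2.01. KCNJ8, a potassium channel subunit of pericytes, was at 3.82 and 5.61 RPKM in line 1, 9.95 and 16.6 in line 2, 0.0127 in the ARID1A+/- line and 3.86 and 7.84 in the control, so for each kit line 2 lay above the control for KCNJ8 and below it for RGS5, while the ARID1A+/- library lay below the KAPA control for both. The 5 fibroblast markers summed to 189 and 211 RPKM in line 1, 44.4 and 40.1 in line 2, 65.3 in the ARID1A+/- line and 76.0 and 76.8 in the control. COL1A1 carried that sum in line 1, with 156 and 171 RPKM there, 30.3 and 19.9 in line 2, 17.1 in the ARID1A+/- line and 60.2 and 62.6 in the control. The other markers were ordered differently. LUM was at 17.1 and 17.3 RPKM in line 1, 3.25 and 3.42 in line 2, 13.7 in the ARID1A+/- line and 2.04 and 1.72 in the control. DCN was at 4.44 and 2.21 RPKM in line 1, 4.02 and 3.74 in line 2, 1.75 in the ARID1A+/- line and 0.301 and 0.0326 in the control. For LUM and DCN every mutant library, those of line 2 included, thus lay above both controls. PDGFRA was at 11.8 and 20.5 RPKM in line 1, 6.83 and 13.1 in line 2, 32.7 in the ARID1A+/- line and 13.4 and 12.5 in the control, and COL1A2, the partner chain of COL1A1 in type I collagen, reached at most 0.0336 RPKM in any library. The part of such cells in the RGS5 values was not tested, and in bulk RNA fewer cells of a type and less RNA per cell cannot be told apart.

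The called RGS genes of chromosome 1 are RGS5, RGS4, RGS2 and RGS16 of the R4 family and RGS7 of the R7 family. Their promoters are shown because neighbours and family members among them moved differently. Each is 250 bases before to 50 after the first start listed by RefSeq (GRCh38.p14, not the hg19 build of the alignments), 5′ to 3′ on the gene's strand, with capitals at motif matches. RGS5 is at chr1:163321686-163321985 (minus strand), RGS4 at chr1:163068621-163068920 (plus), RGS2 at chr1:192808789-192809088 (plus), RGS16 at chr1:182604340-182604639 (minus) and RGS7 at chr1:241357156-241357455 (minus).
RGS5 promoter: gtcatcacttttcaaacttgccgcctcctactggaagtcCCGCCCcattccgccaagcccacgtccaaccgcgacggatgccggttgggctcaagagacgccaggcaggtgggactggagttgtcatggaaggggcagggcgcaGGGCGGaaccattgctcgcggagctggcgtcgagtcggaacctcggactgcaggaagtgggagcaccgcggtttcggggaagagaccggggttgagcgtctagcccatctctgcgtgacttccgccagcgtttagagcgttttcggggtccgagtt
RGS4 promoter: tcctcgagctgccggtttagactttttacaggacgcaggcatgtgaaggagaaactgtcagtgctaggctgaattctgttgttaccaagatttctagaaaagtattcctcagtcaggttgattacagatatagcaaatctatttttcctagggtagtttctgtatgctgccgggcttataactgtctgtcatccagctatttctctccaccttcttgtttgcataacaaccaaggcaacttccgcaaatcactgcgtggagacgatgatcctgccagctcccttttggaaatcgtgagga
RGS2 promoter: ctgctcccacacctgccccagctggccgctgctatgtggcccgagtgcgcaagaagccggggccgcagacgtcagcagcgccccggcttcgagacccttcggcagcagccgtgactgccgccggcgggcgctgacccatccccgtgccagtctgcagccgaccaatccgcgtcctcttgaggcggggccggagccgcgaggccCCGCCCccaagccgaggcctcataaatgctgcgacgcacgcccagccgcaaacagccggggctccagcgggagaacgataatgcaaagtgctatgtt
RGS16 promoter: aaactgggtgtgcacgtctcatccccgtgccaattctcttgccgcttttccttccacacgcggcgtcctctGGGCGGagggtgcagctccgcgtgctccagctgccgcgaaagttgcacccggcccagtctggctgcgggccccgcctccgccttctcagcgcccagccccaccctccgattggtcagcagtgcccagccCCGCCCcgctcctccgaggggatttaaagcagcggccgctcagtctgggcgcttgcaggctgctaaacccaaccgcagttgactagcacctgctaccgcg
RGS7 promoter: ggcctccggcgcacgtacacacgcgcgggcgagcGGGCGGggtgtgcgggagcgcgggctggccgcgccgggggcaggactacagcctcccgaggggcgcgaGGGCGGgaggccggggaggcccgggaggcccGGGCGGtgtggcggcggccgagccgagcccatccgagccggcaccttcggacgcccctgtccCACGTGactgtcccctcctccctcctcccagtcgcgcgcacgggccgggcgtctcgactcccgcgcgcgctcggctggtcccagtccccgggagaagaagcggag
The motifs searched on both strands were the cyclic AMP response element TGACGTCA, the AP-1 site TGACTCA, the E-box CACGTG, the GC box GGGCGG and the TATA sequence TATAAA, and no matches overlapped. The GC box occurred 2 times in the RGS5 window, 2 times in RGS16, 1 time in RGS2 and 3 times in RGS7, and RGS7 also held 1 E-box, while these letters were not found in the RGS4 window. RefSeq lists 4 starts for RGS4, 4 for RGS7, 2 for RGS5 and 1 each for RGS2 and RGS16. The matches given are those of the first start only, so other windows of RGS4, RGS5 and RGS7 may differ. Of all 35116 windows of this length in the table, 45% held a GC box, 7.26% the E-box, 1.85% the cyclic AMP response element, 4.95% the AP-1 site and 11.5% the TATA sequence. GC content was 63% for RGS5, 44.7% for RGS4, 69.7% for RGS2, 67% for RGS16 and 79.3% for RGS7.

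RGS2, RGS16 and RGS3 complete the R4 genes that were tested. RGS2, which acts with preference on the q family, stood at 35.5 and 42.7 RPKM in line 1, 35.5 and 19.9 in line 2, 19.7 in the ARID1A+/- line and 14.5 and 18.5 in the control, so all 4 ARID1A-/- libraries lay above both controls. It rose by 0.98 ± 0.24 over both lines (edgeR adjusted p = 0.0431) and by 1.25 ± 0.27 in line 1 (edgeR adjusted p = 0.0302), and line 2 was at 0.70 ± 0.27, not called (edgeR adjusted p = 0.141). RGS2 was the 1 RGS gene called higher over both lines, and that call was lost without either the SMARTer (0.65) or the KAPA (1.29) control library, as was the line 1 call (0.95 and 1.58).

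RGS16 and RGS3 fell in line 2. RGS16, an activity-induced regulator of the i/o and q families, stood at 1.19 and 1.57 RPKM in line 1, 0.349 and 0.204 in line 2, 2.70 in the ARID1A+/- line and 1.54 and 1.53 in the control. It fell by 2.49 ± 0.34 in line 2 (edgeR adjusted p = 0.00595), and line 1, at -0.15 ± 0.30 against control, exceeded line 2 by 2.34 ± 0.34 (edgeR adjusted p = 0.00818). RGS3, the longest R4 protein, stood at 1.30 and 1.20 RPKM in line 1, 0.278 and 0.185 in line 2, 1.75 in the ARID1A+/- line and 1.05 and 0.814 in the control. It fell by 2.05 ± 0.21 in line 2 (edgeR adjusted p = 0.00217), and line 1 exceeded line 2 by 2.49 ± 0.21 (edgeR adjusted p = 0.00157). For both genes the libraries of line 2 lay below all others. The means of both lines, -1.32 for RGS16 and -0.81 for RGS3, were called too, but not without the SMARTer control (-1.37 and -0.81), the KAPA control (-1.30 and -0.83) or the KAPA library of line 2 (-1.14 and -0.75). The line 2 call of RGS16 was lost without the SMARTer control library (-2.54). The sizes in line 2 depended on how low values were treated: limma on log2(RPKM + 1) gave -0.99 for RGS16 and -0.65 for RGS3, both called, and quantile normalization gave -0.87 for RGS16, called, and -0.51 for RGS3, not called.

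**Figure D3:**
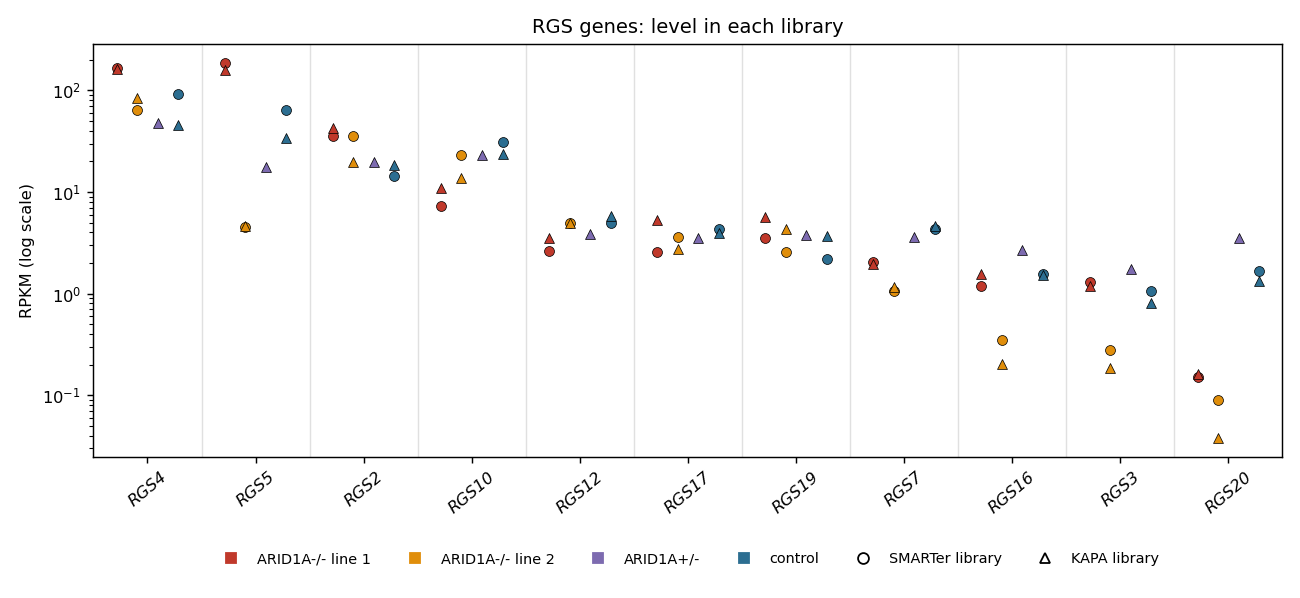
RPKM of the 11 tested RGS genes on a log axis in ARID1A-/- line 1, line 2, ARID1A+/- and control, 1 point per library, with circles for SMARTer and triangles for KAPA. Line 2 sits apart from the other groups for RGS5, RGS16 and RGS3, and both null lines sit below ARID1A+/- and control for RGS7 and RGS20.

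RGS7 fell in each ARID1A-/- line. It belongs to the R7 family, whose members work as a complex with the beta subunit GNB5 and act on the i/o family in neurons. Its level was 2.02 and 1.97 RPKM in line 1, 1.07 and 1.15 in line 2, 3.61 in the ARID1A+/- line and 4.33 and 4.58 in the control, with no overlap among these groups. RGS7 fell by 1.59 ± 0.16 over both lines (edgeR adjusted p = 0.00178), by 1.15 ± 0.20 in line 1 (edgeR adjusted p = 0.0138) and by 2.04 ± 0.20 in line 2 (edgeR adjusted p = 0.00204). Line 1 minus line 2 was 0.89 ± 0.20 (edgeR adjusted p = 0.0343), a call kept without the KAPA library of line 1 and lost without any other single library (0.78 to 0.97). The line 1 call was lost without the SMARTer (-1.19) or the KAPA (-1.13) control library, and the call over both lines without the SMARTer control (-1.64). GNB5 itself was at 1.51 and 1.47 RPKM in line 1, 2.34 and 2.22 in line 2, 1.02 in the ARID1A+/- line and 1.75 and 1.82 in the control, and was called in no comparison (0.04 ± 0.17 over both lines, edgeR adjusted p = 0.915).

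RGS10 and RGS12 of the R12 family were called lower in line 1. RGS10, a small i/o regulator, stood at 7.25 and 10.8 RPKM in line 1, 23.1 and 13.7 in line 2, 22.9 in the ARID1A+/- line and 30.8 and 23.4 in the control. It fell by 1.56 ± 0.29 in line 1 (edgeR adjusted p = 0.0195) and by 1.08 ± 0.24 over both lines (edgeR adjusted p = 0.0306), while line 2 was at -0.61 ± 0.28 (edgeR adjusted p = 0.205). The difference between the lines, -0.95 ± 0.29, did not pass (edgeR adjusted p = 0.0865). RGS12, a large scaffold that also binds GDP-bound alpha subunits, stood at 2.63 and 3.53 RPKM in line 1, 4.94 and 4.95 in line 2, 3.86 in the ARID1A+/- line and 4.96 and 5.85 in the control. It fell by 0.81 ± 0.14 in line 1 (edgeR adjusted p = 0.0128), and line 1 lay below line 2 by 0.65 ± 0.14 (log2 -0.65, edgeR adjusted p = 0.0258). Without the SMARTer control library the line 1 calls of RGS10 (-1.43) and RGS12 (-0.84) were lost, and without the KAPA control likewise (-1.72 and -0.81). Over both lines RGS12 was at -0.49 ± 0.12 (edgeR adjusted p = 0.0376), and the calls of RGS10 and RGS12 were lost without the SMARTer control (-0.95 and -0.52), the KAPA control (-1.24 and -0.48) or the KAPA library of line 2 (-0.94 and -0.43). The difference of RGS12 between the lines held only without the KAPA library of line 1 and lay between -0.78 and -0.50 without each of the others.

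RGS20 showed the largest fall of the 35 genes over both lines, a ranking that leaves out the 14 genes below the filter. It passed the filter through its control libraries alone. Its counts were 17 and 14 in line 1, 10 and 3 in line 2 and 197 and 89 in the control. It belongs to the RZ family and acts with preference on the alpha subunit GNAZ. Its level was 0.150 and 0.161 RPKM in line 1, 0.0898 and 0.0380 in line 2, 3.51 in the ARID1A+/- line and 1.65 and 1.33 in the control. It fell by 3.89 ± 0.29 over both lines (edgeR adjusted p = 0.000565), or 14.8-fold, and was called in line 1 at -3.25 ± 0.35 (edgeR adjusted p = 0.00287). In line 2 it was called at -4.52 ± 0.40 (edgeR adjusted p = 0.00125). These calls held without any single library. The size over both lines depended on how low values were treated: limma gave -2.96 on log2(RPKM + 0.1), -1.71 on log2(RPKM + 0.5) and -1.17 on log2(RPKM + 1), and quantile normalization gave -1.02, each still called. The other RZ genes were not called: RGS17 ranged from 2.55 to 5.24 RPKM and RGS19 from 2.17 to 5.70 RPKM over the 7 libraries, with log2 fold changes over both lines of -0.29 ± 0.30 and 0.44 ± 0.19 (edgeR adjusted p = 0.574 and 0.172).

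Among the 11 alpha subunit genes tested, GNAO1 rose and GNAZ fell in each null line. GNAO1, the Go alpha subunit that is abundant in neurons, stood at 24.4 and 22.2 RPKM in line 1, 24.3 and 25.2 in line 2, 28.5 in the ARID1A+/- line and 16.5 and 16.5 in the control. All mutant libraries thus lay above both controls. GNAO1 rose by 0.53 ± 0.11 over both lines (edgeR adjusted p = 0.0233), by 0.50 ± 0.12 in line 1 (edgeR adjusted p = 0.0421) and by 0.55 ± 0.12 in line 2 (edgeR adjusted p = 0.0310), which is 1.44-fold over both. GNAZ, an i/o family member that inhibits adenylyl cyclase, stood at 7.33 and 5.69 RPKM in line 1, 6.43 and 5.78 in line 2, 6.72 in the ARID1A+/- line and 11.6 and 9.0 in the control. GNAZ fell by 0.72 ± 0.13 over both lines (edgeR adjusted p = 0.0152), by 0.65 ± 0.15 in line 1 (edgeR adjusted p = 0.0385) and by 0.78 ± 0.15 in line 2 (edgeR adjusted p = 0.0213), or 1.64-fold over both.

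GNAO1 and GNAZ kept their directions when a library was left out, but their calls did not all hold. Over both lines GNAO1 was not called without the SMARTer control (0.49), the KAPA control (0.54), or the SMARTer (0.57) or KAPA (0.47) library of line 2, and GNAZ not without the SMARTer (-0.68) or KAPA (-0.78) control. In line 1 GNAO1 kept its call only without the KAPA library of that line and lay between 0.39 and 0.51 otherwise, and GNAZ lost it without the SMARTer control (-0.62), the KAPA control (-0.71) or the KAPA library of line 1 (-0.57). In line 2 the calls were lost without either control or either library of that line, at 0.45 to 0.63 for GNAO1 and -0.93 to -0.65 for GNAZ.

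The other 9 alpha genes tested were called in no comparison. GNAS was at 134 and 101 RPKM in line 1, 116 and 114 in line 2, 72.9 in the ARID1A+/- line and 105 and 110 in the control (0.09 ± 0.14 over both lines, edgeR adjusted p = 0.721). GNAL, the olfactory and striatal relative of GNAS, ranged from 0.318 to 0.869 RPKM and was at 0.72 ± 0.23 over both lines (edgeR adjusted p = 0.0897). The q family genes GNAQ and GNA11, which activate phospholipase C beta, were at 0.20 ± 0.10 and 0.41 ± 0.19, and GNA12 and GNA13, which form a family of their own, at 0.11 ± 0.13 and -0.02 ± 0.10. GNAI1, GNAI2 and GNAI3, the inhibitory subunits of adenylyl cyclase, were at -0.21 ± 0.12, -0.12 ± 0.13 and 0.25 ± 0.10. Their p-values do not show that these genes were equal between the groups. GNAS has an antisense gene and GNAI2 and GNAQ have pseudogenes in the GENCODE annotation, so their counts may be shared, as may those of RGS17.

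**Figure D4:**
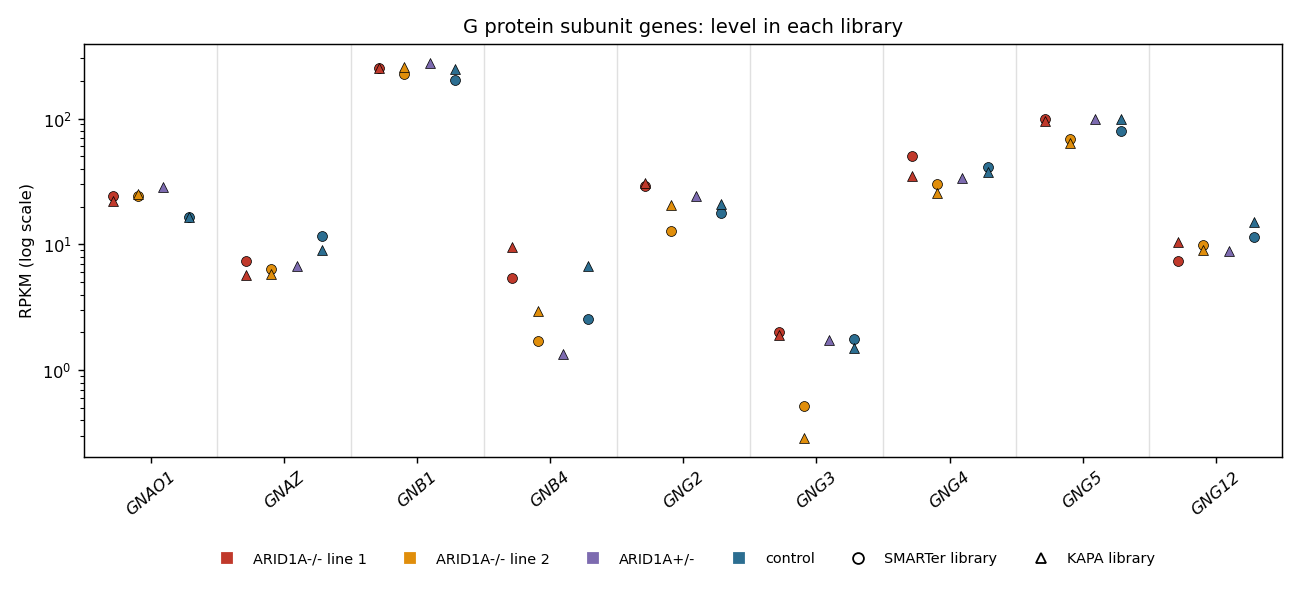
RPKM of 9 G protein subunit genes on a log axis in ARID1A-/- line 1, line 2, ARID1A+/- and control, 1 point per library, with circles for SMARTer and triangles for KAPA. GNAO1 lies above and GNAZ below the control in each mutant library, GNG3 is lowest in line 2, and GNB4 differs between the kits of a group.

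GNB1, the main beta subunit, was at 253 and 251 RPKM in line 1, 226 and 256 in line 2, 277 in the ARID1A+/- line and 201 and 247 in the control (0.13 ± 0.12 over both lines, edgeR adjusted p = 0.512). GNB4, a minor beta subunit, was the called one, and it moved in opposite directions. It stood at 5.41 and 9.50 RPKM in line 1, 1.70 and 2.93 in line 2, 1.35 in the ARID1A+/- line and 2.55 and 6.71 in the control. KAPA libraries were higher than SMARTer libraries in each pair, so line 1 and line 2 overlap the control unless the kits are compared separately. In the model with the kit as a term, GNB4 rose by 0.79 ± 0.18 in line 1 (edgeR adjusted p = 0.0386), fell by 0.94 ± 0.19 in line 2 (edgeR adjusted p = 0.0226) and differed between the lines by 1.73 ± 0.19 (edgeR adjusted p = 0.00322). The difference between the lines held without any single library. The line 1 call was lost without the SMARTer control (0.48), the KAPA control (1.09) or the SMARTer library of line 1 (0.61), and the line 2 call without the KAPA control (-0.64) or the SMARTer (-1.07) or KAPA (-0.82) library of line 2. GNB2, GNB3 and GNB5 were not called in any comparison.

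The gamma subunits, small prenylated proteins that anchor the beta-gamma pair to the membrane, were called in 4 of 8 tested genes between the null lines, each higher in line 1, where 12.8% of all genes were called and 5.71% were higher. The class summed to 218 and 208 RPKM in line 1, 148 and 160 in line 2, 197 in the ARID1A+/- line and 175 and 203 in the control. GNG5, the most abundant, stood at 98.4 and 96.2 RPKM in line 1, 68.7 and 64.2 in line 2, 98.7 in the ARID1A+/- line and 79.4 and 99.2 in the control, and line 1 exceeded line 2 by 0.59 ± 0.14 (edgeR adjusted p = 0.0362). That difference was no longer called without the SMARTer library of line 1 (0.48) or the SMARTer (0.70) or KAPA (0.52) library of line 2. GNG5 has 4 pseudogenes in the GENCODE annotation, so part of its counts could be shared with copies.

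GNG2, a common neuronal gamma subunit, was at 29.1 and 30.5 RPKM in line 1, 12.9 and 20.6 in line 2, 24.4 in the ARID1A+/- line and 17.7 and 20.9 in the control, and line 1 exceeded line 2 by 0.91 ± 0.18 (edgeR adjusted p = 0.0216; 0.64 and not called without the SMARTer library of line 2). GNG4 was at 50.3 and 34.7 RPKM in line 1, 29.9 and 25.7 in line 2, 33.5 in the ARID1A+/- line and 41.0 and 37.7 in the control, a difference between the lines of 0.64 ± 0.15 (edgeR adjusted p = 0.0344). That of GNG4 kept its call only without the KAPA library of line 1 and ranged from 0.41 to 0.73 without each other library. The widest of these differences was in GNG3, a gamma subunit of neurons, with 2.01 and 1.91 RPKM in line 1, 0.516 and 0.291 in line 2, 1.75 in the ARID1A+/- line and 1.76 and 1.51 in the control. GNG3 fell by 2.03 ± 0.35 in line 2 (edgeR adjusted p = 0.0143), and line 1 exceeded line 2 by 2.31 ± 0.35 (edgeR adjusted p = 0.00938). The line 2 call was lost without the SMARTer (-2.11) or KAPA (-1.99) control or the SMARTer (-2.41) or KAPA (-1.80) library of line 2, and the difference between the lines without the KAPA library of line 2 (2.07). On log2(RPKM + 1) limma gave -0.91 for GNG3 in line 2 and 1.08 between the lines, both called.

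GNG12 was the gamma gene called over both lines. It stood at 7.35 and 10.5 RPKM in line 1, 9.84 and 9.07 in line 2, 8.88 in the ARID1A+/- line and 11.4 and 15.0 in the control, each mutant library below both controls. It fell by 0.53 ± 0.14 over both lines (edgeR adjusted p = 0.0486), a call lost without the SMARTer control (-0.65), the KAPA control (-0.44), the SMARTer library of line 1 (-0.46) or the KAPA library of line 2 (-0.42). GNG12 has an antisense gene, and the labels do not say whether reads were counted by strand. GNG8, GNG10 and GNG13 were not called in any comparison, and GNG10 shares a read-through transcript with DNAJC25.

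The 14 genes below the filter included some with counts in few libraries. RGS13, an R4 gene next to RGS2 on chromosome 1, had 30 and 50 counts in line 1, 1 and 0 in line 2, 24 in the ARID1A+/- line and 7 and 7 in the control. Scaled for depth, line 1 was 5.29-fold above the control (95% exact interval 2.97 to 10.1, counting error only) and the ARID1A+/- library 2.64-fold above the KAPA control (1.10 to 7.25). RGS8, the neighbour of RGS16, had 6 and 11 counts in line 1, 0 and 0 in line 2, 2 in the ARID1A+/- line and 3 and 2 in the control, so line 1 was at least 5.55-fold higher than line 2, taking 3 counts over the pair of line 2 libraries as the floor. In a fit with no filter the difference between the lines was called for RGS13 (5.93 ± 0.87, edgeR adjusted p = 0.00180) and missed the threshold for RGS8 (edgeR adjusted p = 0.0603).

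RGS9 and RGS11, the R7 relatives of RGS7, had their highest counts in line 2. RGS9, known from the retina and striatum, had 24 and 3 counts in line 1, 58 and 12 in line 2, 0 in the ARID1A+/- line and 7 and 1 in the control, which put line 2 8.26-fold above the control (95% exact interval 3.97 to 19.9) and line 1 3.12-fold above it (1.38 to 7.95). RGS9 was called in line 2 in the fit with no filter (3.18 ± 0.65, edgeR adjusted p = 0.00930). RGS11 had 8 and 3 counts in line 1, 49 and 10 in line 2, 2 in the ARID1A+/- line and 23 and 4 in the control, and the difference between the lines was called in that fit (-2.29 ± 0.60, edgeR adjusted p = 0.0334). The counts of both genes lay mostly in the SMARTer libraries.

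GNG11 was seen almost only in the ARID1A+/- line. It had 0 counts in each of the 4 ARID1A-/- libraries, 82 in the ARID1A+/- library and 3 and 2 in the control, and the ARID1A+/- library was 31.5-fold above the KAPA control (95% exact interval 8.46 to 265). With 1 ARID1A+/- library there is no replicate check of that ratio. RGS1, RGS18 and RGS21, which lie beside RGS13 on chromosome 1, were at 0 counts in all 7 libraries, which allows up to 3 counts in each. RGS14 had between 6 and 17 counts per library, and GNA14, GNA15, GNG7, RGS6 and RGS22 had at most 10.

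The ARID1A+/- library was set against the KAPA control library as a log2 ratio of counts scaled by TMM and library total, with no test. Of the 35 genes 3 were past 2-fold higher and 2 lower (14.3%, against 10.3% of all genes, 4.43% higher and 5.88% lower). The higher ones were RGS20 (1.45), GNAL (1.28, on 183 counts against 58) and RGS3 (1.16), and the lower ones GNB4 (-2.26) and GNG8 (-1.52, on 5 counts against 11). GNAI2 (0.97), GNB3 (0.95), RGS5 (-0.91), RGS16 (0.87) and GNAO1 (0.85) lay just inside 2-fold. Past 1.5-fold were 7 higher and 5 lower (34.3%, against 21.5% of all genes, 10.4% higher and 11.1% lower), and with scaling to the library total alone 7 were higher and 8 lower (42.9%). The control libraries of the 2 kits differed by 1.39 log2 units for GNB4, 1.04 for RGS4, 0.92 for RGS5 and 0.81 for GNAL. GNAL was at 0.744 RPKM in the ARID1A+/- line and at 0.557 and 0.318 in the control, so its ratio used the lower control library. The ARID1A+/- ratio is taken within the KAPA kit, so a kit effect shared by the groups does not enter it. With 1 control library per kit, such an effect cannot be told apart from other spread between the libraries. The ratio of RGS5 (-0.91) was of the size of that gap, and the ratio of GNB4 (-2.26) was larger. RGS20 was at 3.51 RPKM in the ARID1A+/- line, above both controls, and at most 0.161 RPKM in the null lines.

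**Figure D5:**
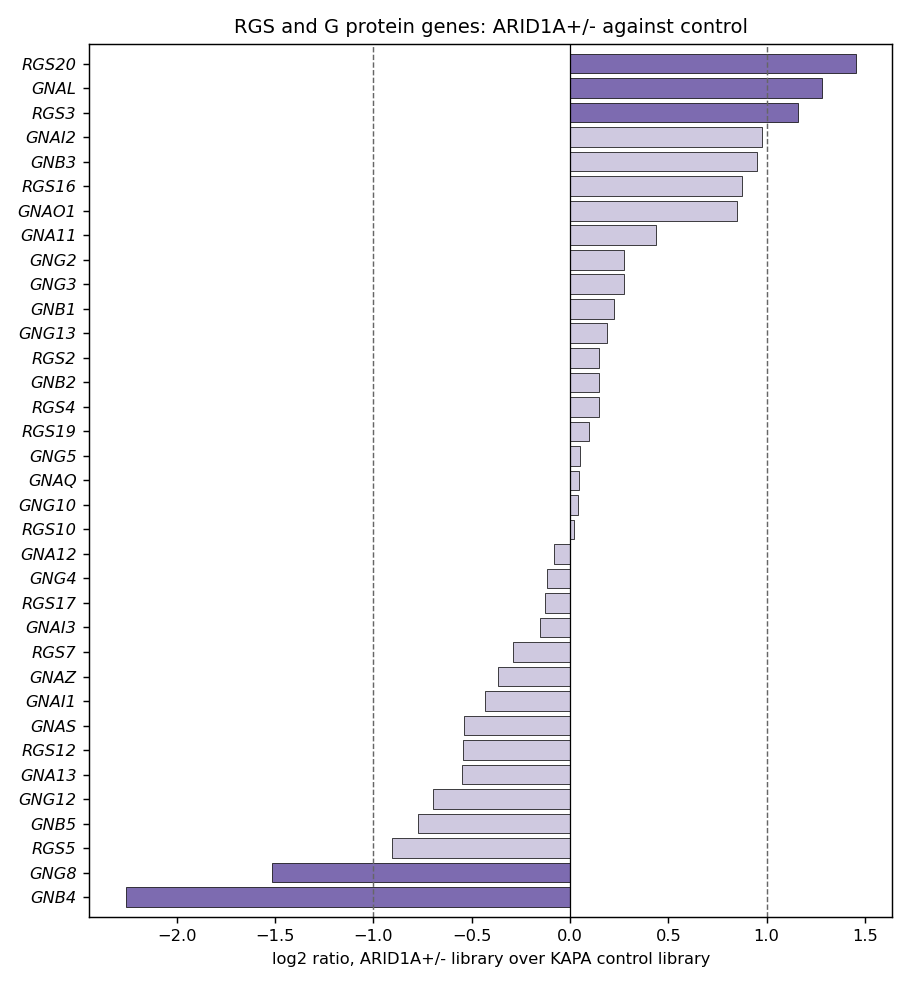
Log2 ratio of the ARID1A+/- library to the KAPA control library for the 35 tested genes, 1 bar per gene, with dashed lines at 2-fold in each direction and dark bars past them. RGS20, GNAL and RGS3 lie past 2-fold higher and GNB4 and GNG8 past 2-fold lower, with no replicate of either library.

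Other genes of the pathway were counted from lists chosen by function. Of 31 tested G protein-coupled receptors, 4 rose and 8 fell over both lines, where 14.2% of all genes were called. Line 1 had 5 receptors called higher and 7 lower (13% of all genes), and line 2 had 4 higher and 7 lower (14%). Their median log2 fold change over both lines was -0.37. GABBR2, a subunit of the GABA-B receptor, stood at 0.780 and 0.434 RPKM in line 1, 0.721 and 0.556 in line 2, 6.63 in the ARID1A+/- line and 5.26 and 4.48 in the control (-3.00 ± 0.18 over both lines, edgeR adjusted p = 0.000247). The somatostatin receptor SSTR2 stood at 2.24 and 5.91 RPKM in line 1, 0.613 and 1.12 in line 2, 43.0 in the ARID1A+/- line and 23.2 and 17.7 in the control (-3.61 ± 0.33, edgeR adjusted p = 0.00118). The histamine receptor HRH3 fell by 2.18 ± 0.16 (edgeR adjusted p = 0.000546). ADRA2A, the alpha2A-adrenergic receptor, rose by 1.85 ± 0.16 (edgeR adjusted p = 0.000962), with 29.8 and 18.3 RPKM in line 1, 57.6 and 52.1 in line 2, 14.1 in the ARID1A+/- line and 10.9 and 8.95 in the control. These 4 were the receptors with the smallest p over both lines, and all 4 signal through the i/o family. The other receptors of the list were not sorted by family, so no share can be set beside this.

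Effector genes were called in both directions, where over both lines 14.2% of all genes were called, 4.64% higher and 9.57% lower. Of 7 adenylyl cyclases, 1 rose and 2 fell over both lines: the calcium-stimulated ADCY1 fell by 2.01 ± 0.18 (edgeR adjusted p = 0.00106), with 1.81 and 3.02 RPKM in line 1, 2.42 and 3.05 in line 2, 8.32 in the ARID1A+/- line and 10.7 and 9.20 in the control. The mean of ADCY7, at -0.95, rested on line 1, where it fell by 1.56 ± 0.17 (edgeR adjusted p = 0.00277). Line 2 was at -0.34 ± 0.16 (edgeR adjusted p = 0.216), and line 1 lay below line 2 by log2 -1.22 ± 0.17 (edgeR adjusted p = 0.00671). ADCY6 rose by 0.60 ± 0.15 over both lines (edgeR adjusted p = 0.0420) and was called in line 2 (0.73, edgeR adjusted p = 0.0343) but not in line 1 (0.46, edgeR adjusted p = 0.121). Of the 7 cyclases, line 1 had 3 called, each lower (13% of all genes, 8.27% lower), and line 2 had 2 higher and 1 lower (14%, 5.47% and 8.52%). Among 14 phosphodiesterase and protein kinase A genes, 1 rose and 0 fell, namely PRKAR2B, a regulatory subunit of the kinase (0.75 ± 0.17, edgeR adjusted p = 0.0317; 1.09 ± 0.19 in line 2, edgeR adjusted p = 0.0142, and 0.41 ± 0.19 in line 1, edgeR adjusted p = 0.205). For the mean of both lines 1 fell at an unadjusted p under 0.05 by edgeR and 1 fell by DESeq2, and limma called 0 lower. Line 2 had 2 higher and 2 lower in that list. Of 11 genes of the phospholipase C beta branch, 1 rose and 2 fell: the kinase PRKCA rose by 1.33 ± 0.12 (edgeR adjusted p = 0.00118), while PLCB2 fell by 1.95 ± 0.20 (edgeR adjusted p = 0.00166) and the inositol trisphosphate receptor ITPR2 by 1.73 ± 0.39 (edgeR adjusted p = 0.0327), which was called in neither line alone (edgeR adjusted p = 0.0744 in line 1 and 0.0533 in line 2). Line 1 had 1 higher and 1 lower of the 11, and line 2 had 1 higher and 4 lower. KCNJ9, the 1 tested channel gene gated by beta-gamma, was at 0.84 ± 0.34 in line 1 and -0.60 ± 0.35 in line 2, neither of them called (edgeR adjusted p = 0.161 and 0.301), and line 1 exceeded line 2 by 1.44 ± 0.35 (edgeR adjusted p = 0.0424).

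Other regulators of the cycle were called singly, against the same shares of all genes over both lines (4.64% higher and 9.57% lower). RASD1, a small G protein that activates the i/o family without a receptor, fell by 2.94 ± 0.25 over both lines (edgeR adjusted p = 0.000950), with 0.775 and 0.252 RPKM in line 1, 0.731 and 0.139 in line 2, 5.18 in the ARID1A+/- line and 5.03 and 1.80 in the control. GPSM2, which holds alpha subunits of the i family in their GDP form, rose by 1.12 ± 0.11 (edgeR adjusted p = 0.00150), and these were the 2 called of 10 chaperones and regulators tested. Of 7 receptor kinases and arrestins, ADRBK2 rose by 0.72 ± 0.10 (edgeR adjusted p = 0.00575) and 0 fell, with 1 lower at an unadjusted p under 0.05 by edgeR, 1 by DESeq2 and 0 by limma. In line 1 the arrestin ARRB1 was also higher (0.70 ± 0.13, edgeR adjusted p = 0.0197) and the kinase GRK4 lower (-0.93 ± 0.22, edgeR adjusted p = 0.0415), and line 1 minus line 2 was 0.72 ± 0.13 for ARRB1 and -1.34 ± 0.22 for GRK4 (edgeR adjusted p = 0.0181 and 0.0128). Among 9 tested genes listed as responsive to cyclic AMP, 3 fell over both lines, PER1 by 1.03 ± 0.18, NR4A1 by 0.87 ± 0.18 and SIK1 by 0.82 ± 0.15 (edgeR adjusted p = 0.0131, 0.0231 and 0.0170), and 0 rose, with 1 higher at an unadjusted p under 0.05 by edgeR and 0 by DESeq2 and limma. Of these 9, line 1 had 2 lower (8.27% of all genes) and line 2 had 4 (8.52%), and NR4A1 was called in line 2 (-1.09 ± 0.21, edgeR adjusted p = 0.0207) but not in line 1 (-0.65 ± 0.21, edgeR adjusted p = 0.0919). PDE4D is a member of this list and of the phosphodiesterase list, so its fall in line 2 (-2.02, edgeR adjusted p = 0.0209) is counted in both.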

How the data were processed

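RNA was sequenced in 7 libraries (single-end reads of 75 bp, per the labels' protocols), and the aligner was HISAT2 2.1.0 with the hg19 genome, per the submitters' processing notes. Neither the counting program nor the annotation nor the use of strand is given in the sources used here. The labels name both removal of ribosomal RNA and polyadenylated RNA. For each library the authors deposited a table of whole-number counts and RPKM values, and the deposited RPKM equals the count divided by gene length and library total to within 0.000501%.

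The members and lists were chosen with earlier results of these data known. Counts were tested with edgeR 4.0.16 in R 4.3.3 (quasi-likelihood, TMM, group and kit as terms, mean RPKM of at least 0.5), with p-values adjusted by Benjamini-Hochberg over 14711 genes; the fit was checked on simulated data. The labels tie the replicate number to the kit, which serves as the block, and kit differences correlated between groups (0.51 for line 1 and control, 0.628 for line 2 and control, 0.447 between the lines). Standard errors were taken as the log2 fold change over the root of its F statistic. Low counts were compared as depth-scaled ratios with 95% exact binomial intervals, which cover counting error only. Members called in any comparison and the highest of each class were given by library, and of each partner list up to 4 genes with the smallest p. Alternatives were DESeq2 1.42.0, limma 3.58.1 on log2(RPKM + 1), other scalings and filters, no kit term, and each library left out. Promoters came from RefSeq, where 42 of the 49 genes had one. Pseudogenes, read-through genes and antisense genes were looked up by name in the GENCODE annotation.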

Additional observations from a re-analysis of the deposited data

Results flagged for a closer look

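The direct test of line 1 against line 2 (edgeR, adjusted p under 0.05) marked 10 of the 35 genes as differing between the ARID1A-/- lines. The log2 difference, line 1 minus line 2, was 5.26 for RGS5, 2.49 for RGS3, 2.34 for RGS16, 2.31 for GNG3, 1.73 for GNB4, 0.91 for GNG2, 0.89 for RGS7, 0.64 for GNG4, 0.59 for GNG5 and -0.65 for RGS12. Of all genes tested, 12.8% were called in this comparison.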

How the results depend on the processing

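None of the 40 called values of single RGS and G protein genes changed sign under any alternative, and 8 kept their call under every one. DESeq2 and the fit with no filter kept 40 of 40, a filter at a mean of 1 RPKM 34 of the 34 it could test, RLE size factors 38, library totals 37, limma 29 at a pseudocount of 1 or 0.5 and 30 at 0.1, and quantile normalization 26. Without the kit term (no replicate block) 11 of 40 kept their call. In that fit without the block the number of genes higher and lower was 0 and 2 over both lines (2 and 9 with the block), 0 and 1 in line 1 (5 and 5), 0 and 5 in line 2 (1 and 8) and 3 and 0 for line 1 against line 2 (9 and 1). Over both lines limma gave 1 higher and 4 lower at each of the 3 pseudocounts, quantile normalization 1 and 4, and RLE 1 higher. Quantile normalization gave 2 higher in line 1. With no filter 2 were higher in line 2. For line 1 against line 2 the number lower was 2 with DESeq2, 3 with no filter and 0 with limma or quantile normalization. For the ARID1A+/- library a 1.5-fold limit gave 7 higher and 5 lower, or 7 and 8 with library totals. Without the highest member of a class the log2 ratio of summed RPKM to control was -0.84 for RGS in line 2, 0.15 for alpha subunits in line 2 (0.092 with RPKM divided by the TMM factor), -0.069 for beta subunits in line 1 and -0.22 in line 2, and -0.18 for gamma subunits in line 2. Leaving out 1 library at a time gave 0 to 2 higher and 1 to 9 lower over both lines, 1 to 6 and 1 to 6 in line 1, 0 to 2 and 5 to 13 in line 2, and 6 to 9 and 0 to 2 for line 1 against line 2; there the lone library of a group is assumed to vary like the others. Without the SMARTer control 16 of 40 kept their call and without the KAPA control 17. The causes were not tested. With 2 libraries a group, 1 control line and 1 ARID1A+/- library, small differences and those resting on few counts are the least secure.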
